A study of Mus musculus with 3 samples.

Results

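Proliferating leukocytes of the mouse lung were the cells with at least 5 UMIs (unique molecular identifiers, each standing for 1 captured transcript) summed over Mki67, Top2a, Birc5, Cdk1, Ube2c and Nusap1. In the shallower 2-hour library the minimum was 2 UMIs. They were 193 of the 21425 cells kept with more than 200 genes and under 10% mitochondrial UMIs, and the files held 22265 cells in all. The rule uses measured values, so the levels of these 6 genes describe the choice and are no result. The study examined recipient leukocytes in transplanted lungs with single-cell RNA-Seq of 3 libraries, 1 per condition. The naive library came from left lungs of C57BL/6J (B6) mice without transplantation. The other 2 came from left lungs of CD45.2 B6 donors that were transplanted into CD45.1 B6 recipients, after 60 minutes at 4 °C and 45 minutes at 28 °C, and were harvested after 2 hours or 3 days of reperfusion. Cells of 2 mice were pooled for each library, stained for CD45.1 and CD45.2 and sorted. Recipient cells carry CD45.1, and no source used here gives the gate of the naive library. The methods state that young adult mice of both sexes were used, and the labels give neither age nor sex. Each condition has a single library, so conditions could not be tested over mice and no p-value is given, and every interval is a 95% interval for counting error only. A difference between conditions cannot be told apart from a difference between pools of mice or cell preparations. Against the naive library, the same holds for the sort and for versions of the counting software. Per the paper, recipient cells were sorted from the grafts, a gate that leaves out donor cells resident there.

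Cells that divide pass through a phase of DNA synthesis and then through mitosis. Replication uses licensing factors such as the MCM helicase, nucleotide-making enzymes such as ribonucleotide reductase, and the sliding clamp PCNA. Mitosis uses kinases, kinetochore proteins and tubulin-based motors, whose transcripts are made mostly in G2 and are switched off in resting cells. In the lung, alveolar macrophages are known to maintain themselves by local division, whereas mature neutrophils do not divide and arise from dividing precursors in the bone marrow. T cells divide after activation, and monocyte-derived macrophages can divide in injured tissue.

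The cycling cells were 49 of 2628 kept cells in the naive library, 33 of 10283 at 2 hours and 111 of 8514 at 3 days. These libraries held 28538529, 10749100 and 70750470 UMIs. Cycling cells were deep: their median was 33652 UMIs in the naive library against 7599 for the other kept cells. It was 1765 against 876 at 2 hours, and 22848 against 5757 at 3 days. A minimum of raw UMIs favours deep cells, so this depth is no result apart from the rule. Cells below the minimum were also deeper with more UMIs of the rule genes. At 0, 1 to 2 and 3 to 4 such UMIs the naive medians were 7329, 10381 and 15838.5 UMIs. The 3-day medians were 5528.5, 11036.5 and 18494 UMIs. At 2 hours they were 873 UMIs at 0 and 1397.5 at 1. The limits of 6000 genes and 25000 UMIs in the methods, which were not applied here, would remove 38 of the 49 naive cycling cells (77.6%) and 42 of the 111 at 3 days (37.8%), but 6.51% and 1.76% of the other cells. Scrublet, which scores barcodes against simulated doublets, called 2 naive, 0 2-hour and 2 3-day cycling cells doublets. Between 1 and 23 barcodes were shared by each pair of libraries, and none belonged to a cycling cell. Ptprc, which encodes CD45, had a UMI in 48 of 49, 21 of 33 and 111 of 111 cycling cells, against 95.2%, 50.8% and 95.8% of the other cells. The 5 leukocyte genes (Ptprc, Coro1a, Laptm5, Cd52 and Tyrobp) summed to 4604, 3422 and 5158 CPM (counts per 1000000 UMIs of the cells summed) in cycling cells and 5385, 5230 and 7591 CPM in the others. Epithelial markers were at 45.6, 10.97 and 9.42 CPM in cycling cells, against 368, 388 and 151 CPM in the others. Endothelial markers were at 117, 143 and 38.8 CPM, against 275, 115 and 115 CPM.

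Of the 6 genes, Top2a, the topoisomerase that untangles replicated DNA, was the most abundant in each library, at 562, 779 and 510 CPM in cycling cells in the order naive, 2 hours, 3 days. It was at 6.399, 4.52 and 4.52 CPM in the other cells. Mki67, which encodes the coat protein of mitotic chromosomes, was at 452, 461 and 411 CPM. Birc5 (survivin, a subunit of the chromosomal passenger complex) was at 296, 241 and 217 CPM. Cdk1, the kinase that drives entry into mitosis, was at 138, 76.8 and 97.9 CPM. Ube2c, the E2 enzyme of the anaphase-promoting complex, was at 248, 110 and 331 CPM, and the spindle protein gene Nusap1 at 211, 230 and 109 CPM. Summed over the 6 genes, a naive cycling cell held 5 to 225 UMIs (median 41), a 2-hour cell 2 to 23 (median 2) and a 3-day cell 5 to 252 (median 21). Cycling cells thus held 89.7%, 59.9% and 78.8% of their library's UMIs of these genes.

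At 2 hours most cells stood at the minimum: 17 of the 33 cells had exactly 2 UMIs and 116 further cells had 1. The 54 genes of the replication lists reached 1302 CPM in the cells with 2 UMIs, 774 CPM in those with 1 and 674 CPM in those with 0. At 3 days the 32 cells with 5 or 6 UMIs had 1968 CPM of replication genes and 518 CPM of the 42 mitotic genes. The 93 cells with 3 or 4 UMIs, just under the minimum, had 1197 and 440 CPM, and the 58 cells with 20 or more had 3944 and 3282 CPM. In the naive library, 8 cells with 5 or 6 UMIs had 1698 and 538 CPM, and 22 cells with 3 or 4 had 1217 and 467 CPM.

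Cell cycle genes that peak in G2 and mitosis are known to carry a CHR element, spelled TTTGAA or in a variant form TTCGAA, near their start, often with CCAAT boxes upstream. The promoters of the 6 genes, from RefSeq on GRCm38.p6 and running from 250 bases before to 50 after the start of transcription, were searched on both strands for both spellings of the CHR element and for CCAAT. Those of Mki67 (chr7:135716330-135716629, minus strand), Top2a (chr11:99024140-99024439, minus strand), Cdk1 (chr10:69352863-69353162, minus strand) and Ube2c (chr2:164769679-164769978, plus strand) held both kinds of letters. They are shown 5′ to 3′ on the strand of the gene, with matches on either strand in capitals. In Ube2c a pair of CCAAT matches on opposite strands overlap.
Mki67: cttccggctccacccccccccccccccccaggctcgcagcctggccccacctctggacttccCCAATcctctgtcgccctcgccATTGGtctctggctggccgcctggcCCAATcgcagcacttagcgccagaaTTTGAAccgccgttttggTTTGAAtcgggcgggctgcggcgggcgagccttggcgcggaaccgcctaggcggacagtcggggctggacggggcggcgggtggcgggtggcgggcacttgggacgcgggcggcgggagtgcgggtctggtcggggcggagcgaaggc
Top2a: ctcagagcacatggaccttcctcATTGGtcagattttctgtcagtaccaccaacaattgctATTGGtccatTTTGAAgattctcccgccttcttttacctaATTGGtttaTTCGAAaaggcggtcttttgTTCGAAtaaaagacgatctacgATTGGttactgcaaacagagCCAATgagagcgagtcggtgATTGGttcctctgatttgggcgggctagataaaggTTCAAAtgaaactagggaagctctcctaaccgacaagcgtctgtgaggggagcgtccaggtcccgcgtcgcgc
Cdk1: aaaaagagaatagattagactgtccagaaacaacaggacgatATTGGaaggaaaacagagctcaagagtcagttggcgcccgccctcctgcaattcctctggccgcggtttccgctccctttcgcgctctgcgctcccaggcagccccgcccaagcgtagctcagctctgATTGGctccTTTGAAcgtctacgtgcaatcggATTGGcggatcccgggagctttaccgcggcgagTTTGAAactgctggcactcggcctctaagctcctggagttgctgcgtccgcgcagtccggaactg
Ube2c: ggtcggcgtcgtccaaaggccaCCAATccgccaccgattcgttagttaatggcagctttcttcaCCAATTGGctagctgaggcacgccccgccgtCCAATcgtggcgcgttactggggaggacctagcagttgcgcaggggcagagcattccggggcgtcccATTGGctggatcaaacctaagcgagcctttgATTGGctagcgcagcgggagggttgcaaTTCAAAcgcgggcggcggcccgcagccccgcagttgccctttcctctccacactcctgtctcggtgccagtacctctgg
In Cdk1 the match nearest the start ran from base 15 to 10 before it, in Top2a from 23 to 18 and in Ube2c from 29 to 24. In Mki67 it lay further off, from 98 to 93. No match lay in the windows of Birc5 and Nusap1. Of 32851 RefSeq promoters of this length, 7.52% held both a CHR match and a CCAAT match. Of the 91 promoters of genes in the lists of cyclins, mitotic kinases, kinetochore, spindle, condensin and cohesin, and ubiquitin genes used below, 48.4% did. A match is a run of letters and is no evidence that a factor binds there.

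Cycling cells were 1.86% of kept cells in the naive library (95% interval 1.38% to 2.46%), 0.321% at 2 hours (0.221% to 0.450%) and 1.30% at 3 days (1.07% to 1.57%). The 2-hour share lay below both others, although its cells needed fewer UMIs to be counted. With a minimum of 5 UMIs in each library it was 0.126%, and with a minimum of 2 the naive and 3-day shares were 5.02% and 4.18%. To compare libraries at one depth, each cell was thinned to 500 UMIs and counted as cycling with at least 2 UMIs of the 6 genes. The shares were then 0.457% (0.236% to 0.796%) in the naive library, 0.0713% (0.0287% to 0.147%) at 2 hours, where 469 cells were too shallow, and 0.247% (0.153% to 0.377%) at 3 days. Thinning was a single random draw, and the shares expected over draws were 0.490%, 0.101% and 0.289%. The intervals leave out the error of the draw. At 1000 UMIs the drawn shares were 0.891%, 0.376% and 0.616%, and the 2-hour interval (0.210% to 0.619%) overlapped both others. That setting left out 6291 of the 2-hour cells. At both depths the naive share lay above the 3-day share, with overlapping intervals. Under the upper limits of the methods, which left 11 naive cycling cells, this order turned. The naive and 3-day shares were then 0.454% (0.227% to 0.811%) and 0.829% (0.646% to 1.05%), and these intervals overlap. Outside the neutrophil lineage, which made up 24.6% of the 2-hour cells, the shares were 2.05%, 0.400% and 1.60%.

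**Figure D1:**
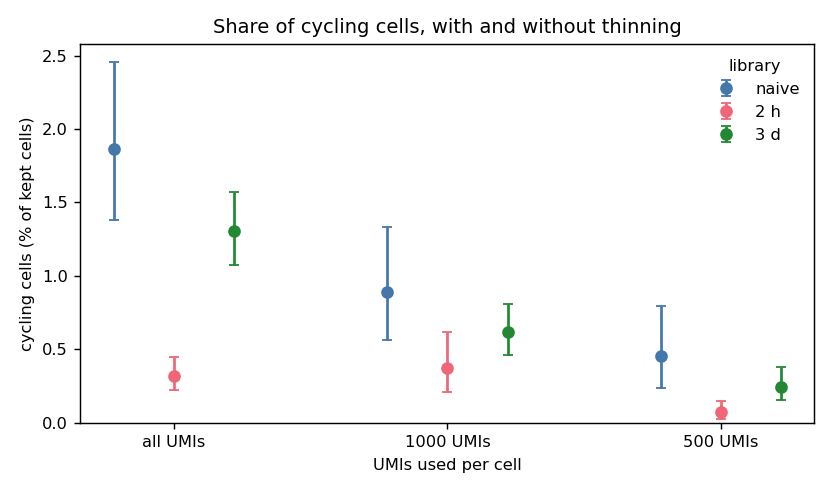
Percent of kept cells that were cycling in the naive, 2-hour and 3-day libraries, with all UMIs of each cell and after thinning each cell to 1000 or 500 UMIs. Points are shares of 1 library each and bars are exact 95% intervals for counting error; the 2-hour share was lowest at each depth, and its interval overlapped the others at 1000 UMIs.

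Each cell was given a lineage from 1 gene per lineage: Cd3e for T cells, Cd79a for B cells, Ncr1 for NK cells, Lyz2 for monocytes and macrophages (called macrophage here), S100a8 for neutrophils and Cdh5 for endothelium. The UMIs of a gene per 10000 were divided by their mean over the kept cells of the library, and the highest ratio gave the lineage if it was over 1 and at least 2 times the next. In naive lungs the macrophage lineage had the largest cycling share, 21 of 407 cells or 5.16% (3.22% to 7.78%). T cells followed with 16 of 523 or 3.06% (1.76% to 4.92%), and these intervals overlap. NK cells had 6 of 445 or 1.35%, neutrophils 2 of 336 or 0.595%, and B cells 1 of 502 or 0.199% (0.00504% to 1.10%). None of the 58 endothelial cells cycled, which allows a share of up to 5.17%.

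At 2 hours T cells held 14 of the 33 cycling cells and were 1.17% cycling (0.642% to 1.96%, of 1194). Among macrophage-lineage cells the share was 3 of 1001 or 0.300% (0.0618% to 0.873%), among B cells 6 of 1147 or 0.523%, and among neutrophils 2 of 2530 or 0.0791%. At 3 days the macrophage lineage was 2.10% cycling (1.51% to 2.84%, 41 of 1952), T cells 1.29% (0.688% to 2.19%, 13 of 1009), B cells 0.266% (5 of 1881) and neutrophils 0.221% (4 of 1810). A further 43 of the 1245 cells with no lineage gene above its mean were cycling, 3.45% (2.51% to 4.62%). In the naive library that class had 1 of 317 and at 2 hours 6 of 3552. Cells with no gene at least 2 times the next, called mixed, had 2 of 40 cycling in the naive library, 0 of 739 at 2 hours and 4 of 255 at 3 days. The macrophage intervals of the 3 libraries did not overlap, with the naive library highest and the 2-hour library lowest. After thinning to 500 UMIs they did, at 0.983% (0.268% to 2.50%), 0.103% (0.00262% to 0.574%) and 0.256% (0.0832% to 0.597%). The naive and 3-day intervals also overlapped with the lineage gene of most raw UMIs (2.88% to 6.69% and 2.46% to 3.83%) and with marker lists (2.69% to 7.02% and 1.89% to 3.39%). The T-cell shares of the 3 libraries had overlapping intervals with and without thinning. Depth differed between lineages, with medians of 14026 (macrophage), 8395 (T) and 5036 (B) UMIs per cell at 3 days. In the naive library they were 22465, 10120 and 6353.5 UMIs. Thinned to 500 UMIs, the 3-day order turned, with 4 T cells (0.396%, 0.108% to 1.01%) and 5 macrophages (0.256%) cycling. These intervals overlap. With lineages called by marker lists the naive T-cell share, 2.64% (1.41% to 4.47%), lay above that at 2 hours, 0.736% (0.403% to 1.23%).

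**Figure D2:**
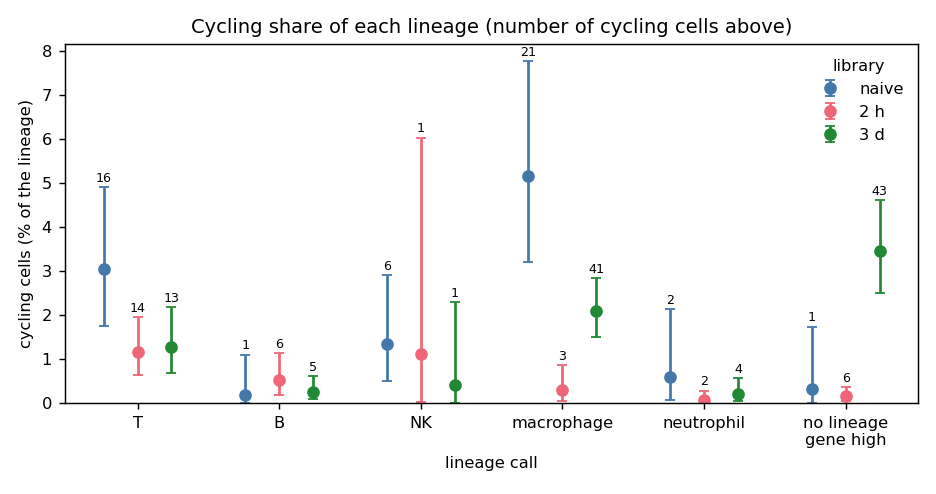
Cycling cells as a percent of the kept cells of 6 lineage calls in the 3 libraries, without the mixed and endothelial calls, with exact 95% intervals for counting error and the number of cycling cells above each bar. The naive macrophage lineage (5.16%) and the 3-day cells with no lineage gene above its mean (3.45%) stand highest of those drawn, and B cells and neutrophils lie under 1% in each library.

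The makeup of the cycling cells differed from that of the kept cells for some lineages. The rule favours deep cells, and the 3-day medians were 5036 (B), 4656 (neutrophil) and 14026 (macrophage) UMIs per cell. The part of depth in this makeup was not tested. B cells were 19.1% of naive and 22.1% of 3-day kept cells but 2.04% and 4.50% of cycling cells (upper bounds 10.9% and 10.2%). At 2 hours they were 11.2% of kept and 18.2% of cycling cells (6.98% to 35.5%). Neutrophils were 24.6% of 2-hour and 21.3% of 3-day kept cells but 6.06% and 3.604% of cycling cells. T cells were 32.7% (19.9% to 47.5%) of naive, 42.4% (25.5% to 60.8%) of 2-hour and 11.7% (6.39% to 19.2%) of 3-day cycling cells. They were 19.9%, 11.6% and 11.9% of kept cells. The naive value lay at the edge of its interval and the 3-day value inside it. The lymphoid lineages (T, B and NK) together were 23 of 46 naive cycling cells with a lineage call, 50% (34.9% to 65.1%), 21 of 27 at 2 hours, 77.8% (57.7% to 91.4%), and 19 of 64 at 3 days, 29.7% (18.9% to 42.4%). Their shares of kept cells with a call were 64.7%, 40.6% and 44.6%. With the lineage gene of most raw UMIs as the call, 109 of the 111 cells at 3 days had a lineage and the lymphoid share was 16.5%. Called doublets included 1 naive T cell, 1 naive macrophage, 1 3-day T cell and 1 3-day neutrophil among the cycling cells.

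**Figure D3:**
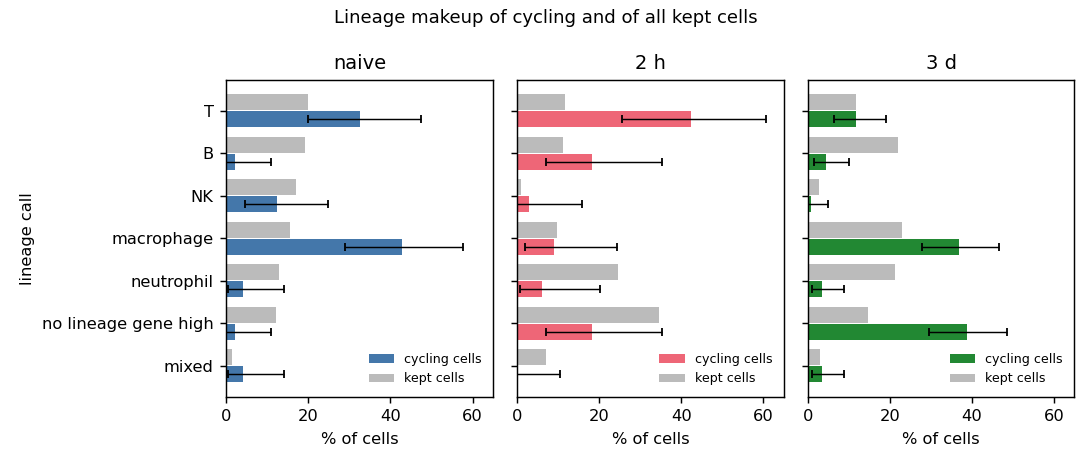
Lineage makeup of cycling cells (coloured bars, with exact 95% intervals for counting error) and of kept cells (grey bars) in the naive, 2-hour and 3-day libraries, each as a percent of cells. T cells made up 42.4% of cycling cells at 2 hours, and macrophages and cells with no lineage gene above its mean made up 36.9% and 38.7% at 3 days.

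Genes of the cell cycle outside the 6 of the rule were grouped into 16 lists of 248 genes by role. The cells were chosen by cell cycle genes, so the values that follow describe what came with that choice. Replication licensing factors summed to 1343 CPM in naive cycling cells and 219 CPM in the other naive cells, a log2 ratio of 2.62 (2.55 to 2.68). At 2 hours the ratio was 2.39 and at 3 days 2.37. Mcm5, a subunit of the replicative helicase, was at 127 against 9.52 CPM in the naive library and 126 against 11.6 CPM at 3 days. Rrm2, the regulated subunit of ribonucleotide reductase, was at 237 against 1.43 CPM in the naive library, 175 against 2.26 CPM at 2 hours and 120 against 0.970 CPM at 3 days. Pcna, which the resting cells also held, was at 449 against 95.4 CPM, 318 against 64.2 CPM and 335 against 119 CPM.

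The 6 genes of the rule act mostly in G2 and mitosis, so the ratios of mitotic lists follow from the choice most directly. Replication fork genes had log2 ratios of 2.40, 2.73 and 1.98 and nucleotide synthesis genes of 2.75, 2.87 (2.59 to 3.14) and 2.03. Mitotic kinases had log2 ratios of 3.75 (3.63 to 3.88), 3.23 (2.66 to 3.75) and 3.85 (3.73 to 3.97) in the naive, 2-hour and 3-day libraries. Aurkb, the kinase of the chromosomal passenger complex, was at 59.7 against 0.809 CPM, 32.9 against 0.376 CPM and 58.7 against 1.45 CPM. Kinetochore and centromere genes had ratios of 3.21, 3.05 and 2.72. Cenpf was at 140 against 0.270 CPM in naive cells and 137 against 0.836 CPM at 3 days. Spindle and motor genes had ratios of 3.23, 3.43 and 3.21, led by the tubulin genes Tuba1b and Tubb5 and by Stmn1, whose product destabilises microtubules. Stmn1 was at 870.3 against 36.4 CPM, 823 against 32.0 CPM and 594 against 21.3 CPM. Among cyclins, Ccnb2, the partner of Cdk1, was at 207 against 2.12 CPM, 197 against 0.564 CPM and 148 against 1.28 CPM. The G1 cyclin gene Ccnd2 was at 269 against 338 CPM, 165 against 188 CPM and 152 against 153 CPM, a log2 ratio of 0.00 (-0.15 to 0.14) at 3 days.

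Inhibitors of the cycle differed in direction. Cdkn1b (p27), an inhibitor of resting cells, had log2 ratios of -0.80, -0.98 and -0.93, at 53.5 against 93.0 CPM in the naive library, 296 against 583 CPM at 2 hours and 77.2 against 147 CPM at 3 days. Cdkn3, a phosphatase gene known to be transcribed in dividing cells, was at 52.4 against 1.002 CPM in the naive library and 37.3 against 0.597 CPM at 3 days. Cdkn1a (p21) was at 203 against 159 CPM, 154 against 239 CPM and 383 against 335 CPM. The list of p53 target genes had ratios of 0.05 (-0.07 to 0.16), 0.12 (-0.45 to 0.63) and -0.05 (-0.13 to 0.04). The summed CPM of genes tied to quiescence had ratios of -1.23, -0.95 and -0.92. At 2 hours the members differed, with Klf2, a factor of lymphocyte quiescence, at -0.03 (-0.27 to 0.21) and Klf6 at -0.20 (-0.64 to 0.21), and most of the gap in the sum was in Btg1. Foxp1, a repressor that keeps lymphocytes resting, was at 402 against 1533 CPM, 98.7 against 335 CPM and 184 against 395 CPM, and Btg1, an antiproliferative gene, at 382 against 1167 CPM, 1821 against 6935 CPM and 1014 against 1854 CPM. Lineage makeup differs between cycling and other cells, and its part in these library-wide values was not tested.

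**Figure D4:**
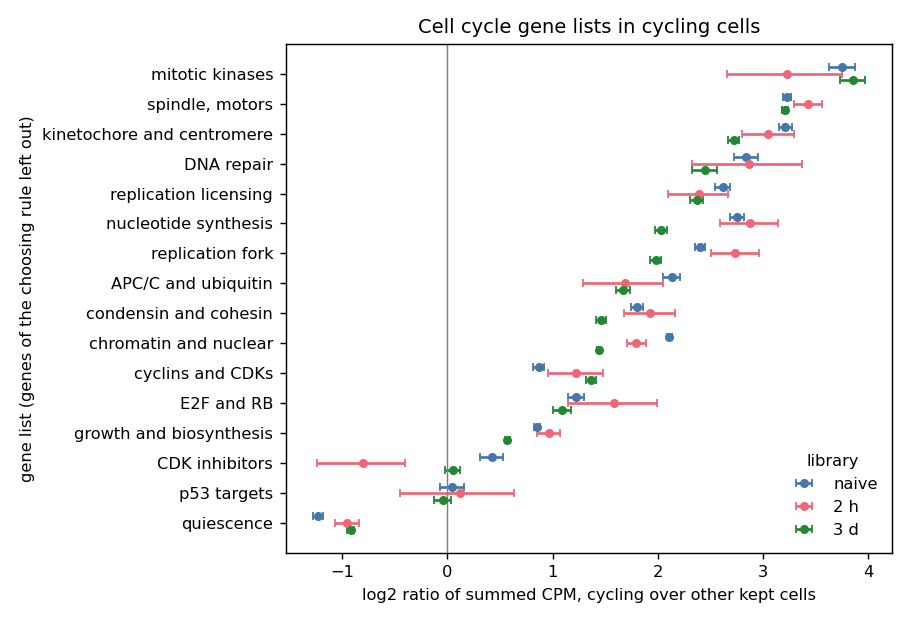
Log2 ratio of the summed CPM of each of 16 gene lists, cycling over other kept cells, in the naive, 2-hour and 3-day libraries, with exact 95% intervals for counting error. Mitotic kinases and spindle genes lie above 3 in each library, p53 targets lie at 0 within their intervals and quiescence genes lie near -1.

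To hold the lineage constant, cycling cells were compared with the other cells of their own lineage and library. No lineage reached the planned 50 cycling cells in a library, so groups of at least 10 were used, a minimum set after the data had been seen. There were 6 such groups: T cells in each library, macrophages in the naive and 3-day libraries, and the 3-day cells with no lineage gene above its mean. Genes with at least 50 UMIs over both sets of cells were compared, and called beyond a 2-fold difference of CPM plus 10. In naive T cells 129 of the 187 list genes compared were higher in cycling cells and 9 lower, where 11.4% of all 8416 genes were higher and 7.90% lower. At 3 days 108 of 167 were higher and 7 lower, against 8.86% and 6.48% of all genes. At 2 hours, where counts were fewest, 33 of 78 were higher and 6 lower, against 12% and 19.9%. In naive macrophages 128 of 193 were higher and 2 lower (3.83% and 2.49% of all genes), in 3-day macrophages 97 of 189 and 1 (2.51% and 1.49%), and in the 3-day cells with no lineage gene above its mean 102 of 189 and 9 (4.04% and 8.06%). In either direction 19.3%, 31.9% and 15.3% of all genes differed in naive, 2-hour and 3-day T cells, 6.32% and 4% in naive and 3-day macrophages, and 12.1% in the last class. The balance of higher and lower genes depended on the scaling. With CPM taken outside cell cycle, mitochondrial and ribosomal protein genes, 777 genes were higher and 950 lower in naive T cells (961 and 665 with all UMIs), 645 and 1037 in 3-day T cells (802 and 586), and 182 and 182 in 3-day macrophages (260 and 154). The rule used cell cycle genes of these same cells, so nothing is read from these shares.

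By role, spindle and motor genes were higher in 15 of 15 genes compared in naive T cells, 11 of 12 in 3-day T cells, 20 of 20 in naive macrophages and 15 of 16 in 3-day macrophages. Their median log2 difference was 2.80, 2.52, 3.15 and 2.48, beside a median of -0.02, 0.06, 0.06 and -0.02 over all genes compared. Replication fork genes were higher in 20 of 24, 18 of 21, 19 of 21 and 14 of 22. In 2-hour T cells 3 of 4 spindle and 2 of 4 fork genes were higher, and in the 3-day cells with no lineage gene above its mean 15 of 16 and 14 of 22. Growth and biosynthesis genes, such as Gapdh, Npm1 and Ncl, were higher in 10 of 18 genes in naive T cells, 9 of 19 in 3-day T cells and 1 of 17 in 2-hour T cells, where the median difference was 0.22. In naive macrophages, 3-day macrophages and the 3-day cells with no lineage gene above its mean 0 of 19 were, with median differences of -0.03, 0.14 and 0.53. Whether the lineages differ in these genes was not tested. Summed, the list stood at 9040 against 3824 CPM in naive cycling T cells and 4178 against 4261 CPM in naive cycling macrophages. Quiescence genes were lower in 6 of 12 in naive T cells, 6 of 12 in 3-day T cells, 4 of 11 in 2-hour T cells, 2 of 12 in naive macrophages, 0 of 12 in 3-day macrophages and 7 of 12 in the 3-day class with no lineage gene above its mean.

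Outside the lists, Pclaf, a PCNA-binding factor, had the largest or second largest positive difference in each group but 2-hour T cells. Replication-dependent histone genes were among the 5 largest in each group. In naive macrophages the 5 also held Gm29010 (160.4 against 0.452 CPM, in 2 cells), Sdk1 and Diaph3. Pclaf was at 724 against 1.91 CPM in naive T cells (log2 ratio 8.57), 547 against 1.23 CPM in 3-day T cells, 311 against 1.36 CPM in naive macrophages and 213 against 1.59 CPM in 3-day macrophages. Hist1h1b, a linker histone gene, was at 562 against 2.67 CPM in naive, 2748 against 21.5 CPM in 2-hour and 1045 against 5.15 CPM in 3-day T cells. In naive and 3-day macrophages it was at 88.9 against 1.70 CPM and 102 against 6.20 CPM. Histone genes such as Hist1h2ap and Hist1h2ae belong to a family of near-identical copies, and no source used here says how reads were shared among copies. Their values per gene are therefore uncertain.

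Among naive cycling T cells, Gzma, Gzmb, Nkg7 and Prf1 were examined as cytotoxic genes, a list chosen after the data had been seen. Gzma, which encodes a granzyme, was at 2059 CPM (1955 to 2168) in the 16 cycling cells and 164 CPM in the 507 others, a log2 ratio of 3.65. It had UMIs in 13 of 16 cycling cells, in 15.6% of the other T cells and, as a background, in 9.96% of B-lineage cells, at median depths of 41395, 9962 and 6353.5 UMIs. Gzmb was at 503 against 44.7 CPM and Nkg7, a granule protein gene, at 1006 against 236 CPM, while Prf1 (perforin) was at 53.5 (37.9 to 73.5) against 42.2 CPM. Cd8a or Cd8b1 was detected in 9 of the 16 cells and Cd4 in the other 7, and no cell had both. Cd4 and Cd8b1 were detected in 0.398% and 0.996% of the naive B-lineage cells. Ctla4, an inhibitory receptor of activated T cells, was at 314 against 105 CPM, and Foxp3, the factor of regulatory T cells, had 10 UMIs in 1 cell. Trdc of γδ T cells had 0 UMIs, which allows up to 4.23 CPM, against 52.9 CPM in the others.

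At 3 days Gzma was at 87.6 CPM (58.2 to 127) in the 13 cycling T cells and 137 CPM in the 996 others, with UMIs in 2 cells. Gzmb was at 256 against 56.2 CPM and Nkg7 at 532 against 262 CPM. Of these 13 cells 4 had Cd8a or Cd8b1 alone, 6 Cd4 alone, 1 both and 2 neither. Foxp3 had 13 UMIs in 2 cells, Trdc was detected in 2 cells, and Ctla4 was at 163 against 55.5 CPM. At 2 hours 6 of 14 cells had Cd8a or Cd8b1, 1 had Cd4 and 7 had neither, as did 71.9% of the other T cells of that shallow library. Gzma had 21 UMIs in 2 of those 14 cells, and Trdc was detected in 1 of the 14. Whether the T-cell states differ between the libraries was not tested.

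A group of T-cell genes chosen after their values were seen described the cycling cells further. Satb1, a chromatin organiser of resting T cells, was at 208 against 1932 CPM in the naive library, 222 against 1773 CPM at 2 hours and 163 against 1073 CPM at 3 days. Tcf7, a factor of naive and memory T cells, was at 88.7 against 366 CPM, 288 against 584 CPM and 172 against 251 CPM. Bcl2, the survival factor gene, was at 149 against 986 CPM in the naive library and 50.04 against 408 CPM at 3 days, and at 199 (91.2 to 379) against 339.8 CPM at 2 hours. Lgals1, which encodes galectin-1, went the other way, at 3214 against 297 CPM, 1618 against 124 CPM and 2208 against 275 CPM.

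The genes with the largest negative differences in naive T cells included Rflnb, a filamin regulator, at 4.23 against 253 CPM, and Igfbp4, with 0 UMIs (up to 4.23 CPM) against 99.3 CPM. At 3 days both had 0 UMIs, which allows up to 9.38 CPM, against 277 and 187 CPM. The 3-day list also held S100a9 (138 against 1082 CPM) and Lyz2 (43.8 against 380.2 CPM), a neutrophil and a myeloid gene. At 2 hours the lowest were myeloid and epithelial genes. Cxcl2 and Il1b, cytokine genes, had 0 UMIs in the 14 cells, which allows up to 66.5 CPM, against 703 and 388 CPM in the other T cells, and Scgb1a1 of club cells had 0 against 199 CPM. The 6 neutrophil markers summed to 111 CPM in cycling and 1717 CPM in other 2-hour T cells, led by S100a9. Cycling cells held more UMIs per cell, and the part of transcripts from other cells in these values was not tested.

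Naive cycling macrophages carried alveolar macrophage markers. The list of Chil3, Ear2, Fabp4, Marco, Krt79 and Siglecf ranged from 0 to 18271 CPM over the 21 cells, with a median of 11178 CPM. Of the 21 cells 20 had at least 1000 CPM, against 80.3% of the 386 other macrophage-lineage cells. That level is not specific to macrophages. The 2 naive cycling neutrophil-lineage cells also passed it, at 8819 and 11646 CPM, with 314 and 278 UMIs of Chil3. Chil3, a chitinase-like lectin gene, was at 9680 against 8202 CPM, Marco, a scavenger receptor gene, at 323 against 126 CPM, and Siglecf at 119 against 102 CPM. Summed, the list was at 11684 against 10324 CPM, and Ear2, Fabp4 and Krt79 together were lower in cycling cells. C1qa, C1qb and C1qc, the complement genes of tissue macrophages, had 0 UMIs in the 21 cells, which allows up to 4.04 CPM each, against 53.4, 45.9 and 39.0 CPM in the others. Apoe was at 45.8 against 638 CPM. Genes of MHC class II were low, with H2-Aa at 71.4 against 413 CPM and Cd74 at 233 against 1069.7 CPM. Ace and Adgre4, genes of nonclassical monocytes, had 1 UMI each, at 1.35 against 77.0 CPM and 1.35 against 101 CPM. The surfactant genes Sftpc and Sftpa1 were at 12.1 against 896 CPM and 2.70 against 140 CPM. The lineage call by Lyz2 pools macrophages and monocytes, so a difference from the other cells also reflects which types those are.

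At 3 days the 41 cycling macrophages carried other genes. The alveolar list had a median of 226 CPM (range 0 to 3429), against 489 CPM in the other cells of the lineage, and 7 of 41 cells (17.1%) had at least 1000 CPM, against 34.4%, with Krt79 at 0 UMIs and Siglecf at 1. The C1q list (C1qa, C1qb, C1qc and Apoe) had a median of 2649 CPM (range 0 to 27019). Of the 41 cells 25 had at least 1000 CPM of it, 61.0% as against 61.0% of the 1911 other cells of the lineage. A cell can reach that level on Apoe alone. C1qa had a UMI in 65.9% of the cycling and 33.0% of the other cells, at median depths of 20793 and 13798 UMIs. As a background, it was detected in 5.64% of 3-day B-lineage cells, at a median of 5036 UMIs. Fn1 (fibronectin) was at 5067 against 3845 CPM and Saa3, an acute-phase gene, at 2922 against 1845 CPM. C1qa, of the complement, was at 1229 (1158 to 1302) against 493 CPM and Apoe, a lipid carrier gene, at 2931 against 2342 CPM. Pf4, a platelet chemokine gene that macrophages also express, and Cd5l, an apoptosis inhibitor of macrophages, both chosen after their values were seen, were at 917 against 204 CPM and 293 against 64.3 CPM. Prg4 (lubricin) was at 196 against 21.1 CPM, with UMIs in 11 of 41 cells. Ccr2, the chemokine receptor of classical monocytes, was at 459 against 734 CPM, and Ly6c2 at 252 against 398 CPM. Ace, Cd300e and Treml4, genes of nonclassical monocytes, were at 8.62 against 132 CPM, 0 UMIs (up to 3.23 CPM) against 54.9 CPM, and 9.70 against 92.6 CPM. Sftpc had 0 UMIs (up to 3.23 CPM) against 314 CPM. The C1q and alveolar lists came from earlier results on these libraries, so their distinct levels are a description.

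The 43 cycling 3-day cells with no lineage gene above its mean had low levels of T-cell (21.9 CPM), NK (68.4 CPM), B-cell (76.8 CPM) and neutrophil (735 CPM) markers. MHC class II genes (H2-Aa, H2-Ab1, H2-Eb1 and Cd74), a list chosen after the data had been seen, were at a median of 33073 CPM per cell (range 102 to 62086), against 569 CPM in the 1202 others. Of the 43 cells, 29 had at least 10000 CPM of them, and 25 of these also had at least 100 CPM of the dendritic list (Flt3, Zbtb46, Xcr1, Clec9a, Cd209a and Ccr7). The dendritic level alone was reached by 27 of the 43 cells. Among the 1202 others, 13.1% reached the MHC class II level and 19.6% the dendritic level, at a median depth of 4344 against 24791 UMIs. These levels were also chosen after the data had been seen. Xcr1 and Clec9a, markers of cross-presenting dendritic cells, were at 63.3 against 9.27 CPM and 66.7 against 22.2 CPM. Flt3, the growth factor receptor of dendritic cell precursors, was at 111 against 52.5 CPM, and Zbtb46 at 24.5 (16.4 to 35.2) against 18.9 CPM. The whole dendritic list had a median of 382 CPM per cell (range 0 to 2869), and Cd209a and Ccr7 are not given separately. Ccl17, a chemokine gene, was at 562 against 50.1 CPM with UMIs in 9 cells (2.41% of the others and 0.585% of B cells, at median depths of 24791, 4344 and 5036 UMIs), and Mgl2, a lectin gene of type 2 dendritic cells and macrophages chosen after its values were seen, was at 555.5 against 97.4 CPM. Siglech of plasmacytoid dendritic cells had 1 UMI.

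A further set of these cells had macrophage genes. The C1q list, which includes Apoe, was at or above 1000 CPM in 20 of the 43, against 18.6% of the others. Of those 20, 9 were also high in MHC class II. Together 40 of 43 cells were high for one or the other. The levels were chosen after the data had been seen, and this joint count was not made in the other cells. C1qb was at 798 (748 to 850) against 150 CPM. C1qa had UMIs in 22 of the 43 cells and 13.6% of the others, at median depths of 24791 and 4344 UMIs. Lyz2 was among the macrophage markers of the class, which summed to 2151 against 1892 CPM. Against the other cells of the class, Gzma (3.38 against 510 CPM), Gzmb (2.53 against 463 CPM), Ccl3 (9.29 against 773 CPM), Ccl4 (32.9 against 1017 CPM) and Hdc, the histamine-making enzyme gene (27.9 against 946 CPM), were lower. Basophil and mast cell markers had 0 UMIs against 227 CPM. The class is thus a mixture defined by what it lacks, and the comparison reads that mixture. When the lineage gene of most raw UMIs gave the lineage, 81 of 2620 macrophage-lineage cells were cycling, 3.09%.

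**Figure D5:**
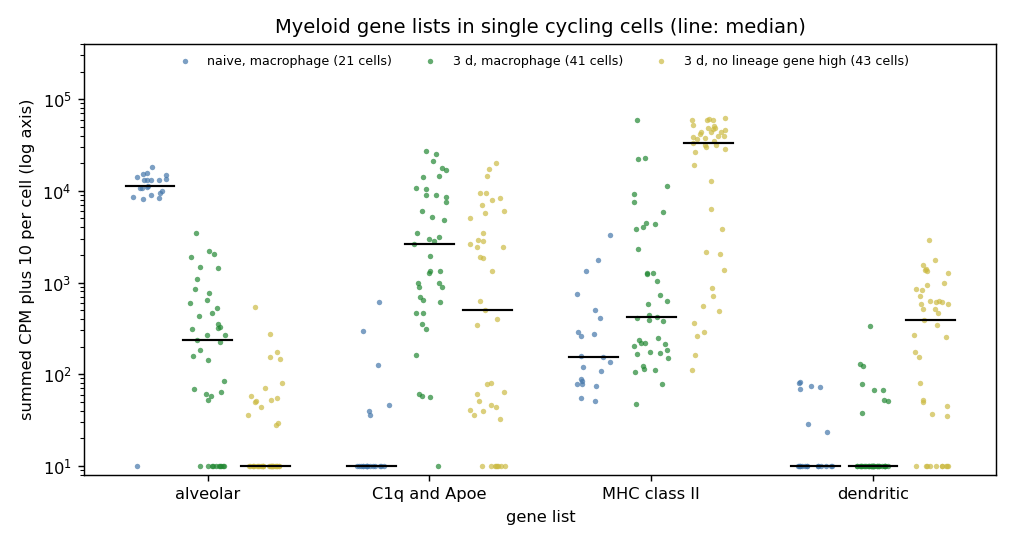
Summed CPM plus 10 of 4 gene lists in each cycling cell, on a log axis, for the naive macrophage lineage (21 cells), the 3-day macrophage lineage (41 cells) and the 3-day cells with no lineage gene above its mean (43 cells). Lines are medians over cells of 1 library; naive cells sit high for the alveolar list (median 11178 CPM), 3-day macrophages spread over the C1q list (median 2649 CPM), and 3-day cells with no lineage gene above its mean sit high for MHC class II genes (33073 CPM).

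The smaller groups are given by cell. At 2 hours 1 of 30 endothelial-lineage cells was cycling by the rule, with 1529 UMIs, of which 6 were of the rule genes. It had 0 UMIs of the 5 leukocyte genes and 3924 CPM of the endothelial list, which goes against the name leukocyte. The 2 naive neutrophil-lineage cells, with 100 and 53 UMIs of the 6 genes, had the secondary granule genes of neutrophil precursors. Camp, which encodes cathelicidin, had 2013 and 1221 UMIs in them, Ngp 1194 and 1057, and Ltf (lactoferrin) 224 and 239. Camp was detected in 3.89% of the other naive neutrophils and in 0.797% of B-lineage cells. The receptor gene Cxcr2 and the mature neutrophil gene Retnlg had 1 and 14 UMIs over both cells, at 16.8 against 605.5 CPM and 235 against 5063 CPM. Their 9 precursor markers came to 96870 and 105442 CPM per cell.

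At 3 days the 4 cycling cells of that lineage had no such genes. They had 1 UMI of Camp, 0 of Ngp and 0 of Ltf, and held Cxcr2 (2 to 11 UMIs per cell) and S100a9 (143 to 1416 UMIs), and 1 was called a doublet. The deepest of them, with 46644 UMIs and 88 of the 6 genes, was not called a doublet but also held 54841 CPM of MHC class II genes and 236 CPM of the dendritic list. Of the other 3-day neutrophils, 0.277% had at least 10000 CPM of MHC class II genes. At 2 hours both such cells had 2 UMIs of the 6 genes, 0 CPM of replication genes and 0 CPM of mitotic genes, and stood at the minimum of the rule. Among the 3 macrophage-lineage cells of that library, 1 cell with 20 UMIs of the 6 genes held Prtn3 (21 UMIs), Mpo (7), Elane (3) and Ctsg (2), the primary granule genes of early myeloid precursors, along with Ly6c2 (8) and Pclaf (18). The other 2 cells had 2 UMIs of the 6 genes and 0 of those granule genes.

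B-lineage cycling cells were few. The 6 at 2 hours included 1 with 266 UMIs of Igha, 157 of the J-chain gene Jchain, 62 of Mzb1 and 6 of Xbp1, the genes of IgA-secreting plasma cells, in 6471 UMIs. The other 5 had none of these and 2 to 4 UMIs of the 6 genes. Summed, the 6 cells had 1787 against 4539 CPM of the B-cell markers and 6638 against 2017 CPM of the neutrophil markers. The cell with 1134 UMIs had 2 UMIs of Cd79a and 0 CPM of MHC class II, replication and mitotic genes. The other 2-hour B cells had 29825 CPM of MHC class II genes. Igha was detected in 0.438% of the other 2-hour B cells and 0.168% of T cells. At 3 days the 5 cells had Ighm at 2702 against 2781 CPM and Ighd at 416 against 1055 CPM, and Ighg2b, a switched isotype, had 47 UMIs in 2 cells (391 against 16.4 CPM). Fas, a death receptor gene, had 5 UMIs in 2 cells. The 6 naive NK cells had 5 to 148 UMIs of the 6 genes, with a median of 42.5. A single cell was called NK by Ncr1 at 2 hours, with 9 UMIs of the 6 genes, and a single one at 3 days, with 123. The 2-hour cell went against its call, with 38254 CPM of MHC class II genes against 343 CPM in the other NK cells and 2433 against 11554 CPM of the NK markers. The 3-day cell had 2564 against 11577 CPM of the NK markers.

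Both transplant libraries also held counts of 277 surface antibodies. Of their antibody UMIs in kept cells, 0.736% at 2 hours and 1.11% at 3 days fell on the 9 isotype controls. CD45R, the B220 form of CD45 on B cells, took 38.8% and 25.0% of the antibody UMIs of other B cells and 20.9% and 5.12% of those of the 6 and 5 cycling B cells. It took 0.223% and 0.173% of those of cycling T cells. Integrin β7 (ITGB7) took 78.7% of antibody UMIs in the 14 cycling T cells at 2 hours and 65.2% in the 13 at 3 days, against 47.6% and 46.1% in the other T cells. Its median per cell was 45 against 9 UMIs at 2 hours and 88 against 14 at 3 days. A single cell held 638 of the 1763 ITGB7 UMIs at 2 hours and 636 of 1890 at 3 days. In 3-day cycling macrophages integrin α6 (ITGA6) took 60.4% of antibody UMIs, against 38.1% in the others, and CD44 18.6% against 27.6%. The medians per cell were both higher in cycling cells, at 182 against 21 UMIs of ITGA6 and 73 against 46 UMIs of CD44. The ITGA6 share was also higher in the 5 cycling B cells (44.5% against 9.42%) and 4 cycling neutrophils (36.7% against 23.2%) at 3 days. In T cells it was lower, at 16.0% against 30.4%. Each share also depends on the UMIs of all other antibodies on the same cells. No source used here describes the antibody panel.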

How the data were processed

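The authors deposited UMI counts per gene and cell barcode for 3 libraries. Per the file headers, the naive counts were made with Cell Ranger 7.1.0 and those of both transplant libraries with Cell Ranger 6.0.0, while the submitters' processing notes name Cell Ranger 6, Seurat 4 and mm10. Whether intronic reads were counted is not stated, and the sources differ on the kit. Cells with more than 200 genes and under 10% mitochondrial UMIs were kept, with no upper limit. Doublets were called with Scrublet in scanpy 1.11.5 and were kept.

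UMIs were summed over cells and scaled to CPM (Python 3.11.15, numpy 2.4.6, scipy 1.17.1, pandas 2.3.3). Intervals of shares are exact Clopper-Pearson intervals and those of CPM and ratios exact Poisson and binomial intervals, all at 95% and for counting error only. A count of 0 was bounded by 3 counts. Genes with at least 50 UMIs over both sets of cells were called beyond a 2-fold difference of CPM plus 10. Cells are not replicates, so no test was run. The ratios and the intervals of ratios and shares were tested on simulated counts, and the other steps were not.

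The cells, gene lists and lineage genes were chosen with earlier results of these data known. The genes named are the 6 of the rule, the 4 most abundant of each role list, the marker lists and the 5 largest differences each way in each comparison. Genes said to be chosen after their values were seen are exceptions, and some genes of these lists are not reported here. Alternatives changed the UMI minimum, depth, cell filters, doublets, marker genes, lineage call, pseudocount, gene filter and scaling.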

Additional observations from a re-analysis of the deposited data

How the results depend on the processing

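No paired analysis was possible because each condition had 1 library, and for the same reason no replicate could be left out. Of 111 alternative values, 82 moved by less than their counting interval or, for counts of genes, by less than 1.5 times, and 29 moved by more. The share of cycling cells was the least stable, with 15 of 33 moved. With at least 2 UMIs in every library it was 5.02% in the naive library and 4.18% at 3 days, and with at least 5 it was 0.126% at 2 hours. With the minimum doubled it was 0.136% at 2 hours and 0.869% at 3 days. With 6 other genes (Cenpf, Tpx2, Ccna2, Ccnb2, Tacc3 and Kif11) it was 0.175% at 2 hours and 0.869% at 3 days. With the upper limits of the methods it was 0.454% in the naive library and 0.829% at 3 days, which turned their order, with overlapping intervals. Thinning to 500 UMIs gave 0.457%, 0.0713% and 0.247% in the naive, 2-hour and 3-day cells, and thinning to 1000 UMIs gave 0.891% in the naive library and 0.616% at 3 days. Outside the neutrophil lineage, an alternative added after seeing the data, the 3-day share was 1.60%.

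Thinned to 500 UMIs, T cells were 0.765%, 0.252% and 0.396% cycling, macrophages 0.983% in the naive library and 0.256% at 3 days, and B cells 0.0903% at 2 hours. With the lineage gene of most raw UMIs, macrophages were 3.09% cycling and the lymphoid share was 16.5% at 3 days. A pseudocount of 1 CPM raised the genes over 2-fold apart from 1626 to 2539 in naive T cells, 1388 to 2754 in 3-day T cells, 604 to 1295 in naive macrophages, 414 to 1370 in 3-day macrophages and 1126 to 2177 in the 3-day cells with no lineage gene above its mean. It also turned the balance of higher and lower genes in 3-day T cells (1327 and 1427) and 3-day macrophages (640 and 730). CPM outside cell cycle, mitochondrial and ribosomal protein genes turned it in naive T cells (777 and 950) and 3-day T cells (645 and 1037). Without the minimum of 50 UMIs the count in 2-hour T cells went from 1252 to 3973. Thinning removes UMIs by construction; the cause of the other moves was not tested. Depth limits the 2-hour library most, where the median cycling cell had 1765 UMIs and 2 UMIs of the 6 genes.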

Other observations

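Cells chosen by 6 other cell cycle genes (Cenpf, Tpx2, Ccna2, Ccnb2, Tacc3 and Kif11) at the same minimum numbered 39 (naive), 18 (2 hours) and 74 (3 days). Of these, 38, 11 and 71 were also chosen by Mki67, Top2a, Birc5, Cdk1, Ube2c and Nusap1, which is 97.4%, 61.1% and 95.9% of the cells chosen by the other genes and 77.6%, 33.3% and 64.0% of those chosen by the rule.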
